A study of Mus musculus with 24 samples.

Results

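Inhibition of mTOR in Smad2 knockout mouse embryonic stem cells was described by ATAC-seq, an assay that marks open chromatin by where the Tn5 transposase can insert sequencing adapters. The 16 knockout libraries of the 24 in the series were used, 8 without inhibitor (Ctrl) and 8 after treatment (Paused). All cells were E14 embryonic stem cells kept with serum and leukemia inhibitory factor. The groups were Ctrl Smad2_KO1, Ctrl Smad2_KO2, Paused Smad2_KO1 and Paused Smad2_KO2, each with 4 libraries of 50000 cells. Paused cells had received 200 nM of INK128, an ATP-competitive mTOR kinase inhibitor, for 12 hours, and both genotypes shared the medium and substrate. The labels give each knockout line only a number and no allele. The 8 WT libraries (4 Ctrl, 4 Paused) were used only to show where the knockout response differed. Nothing in the labels says that libraries of a group came from separate cultures, so p-values measure only the spread between these libraries.

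The kinase mTOR couples nutrients and growth factors to protein synthesis, ribosome production and lipid synthesis, and restrains autophagy and lysosome biogenesis. Its inhibition places mouse embryonic stem cells in a reversible state of slow growth that resembles diapause, the arrest of the blastocyst before implantation. Smad2 is a receptor-activated transcription factor of the Nodal and Activin pathway, which in embryonic stem cells controls feedback genes such as Lefty1 and early germ layer genes. The comparison asks how chromatin accessibility changes on mTOR inhibition when Smad2 is missing.

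Each treatment has a deposited table of its own. That of Ctrl lists 299780 intervals and that of Paused 272268, nearly all of them 201 bases wide. An interval of one table was paired with an interval of the other where the overlap covered 50% or more of both, which gave 215826 matched intervals. Of these, 208059 had a mean of at least 10 normalized reads over the 16 knockout libraries and are called tested intervals below. Midpoints of a matched pair lay a median of 10 bases apart and at most 100. The normalized reads of each library were further centred on the median log2 ratio over matched intervals. Because the tables were normalized separately, levels in Paused and Ctrl are compared as a description, without a p-value. An interval is called separated when all 8 Paused knockout libraries lay above, or all 8 lay below, all 8 Ctrl knockout libraries.

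Depth within the intervals was 11.8 to 16.5 megareads in Ctrl and 13.2 to 20.0 megareads in Paused. It did not differ detectably between the knockout lines within a treatment (exact permutation test, two-sided, p = 0.8 in Ctrl and p = 0.686 in Paused, adjusted p = 0.886 for both over 4 tests). Read counts of libraries with the same replicate number in the 2 lines gave a chi-square per degree of freedom of 1.00 to 1.28 in Ctrl and 0.987 to 1.06 in Paused. Pairs of the same line with different numbers gave 1.10 to 1.47 in Ctrl and 1.11 to 1.52 in Paused. The pair of number 4 in Ctrl and that of number 2 in Paused agreed within sampling noise (at most 1.0062 allowed) although the labels place them in different lines. The 8 libraries of a treatment may therefore hold fewer than 8 independent samples, and the main counts are also given with those 4 libraries left out and with same-numbered libraries averaged. The Smad2 start-site interval was open in every knockout library, at 308 to 406 normalized reads in Ctrl and 327 to 405 in Paused. Its accessibility does not measure the deleted product, so it is no check of the genotype.

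To show the sequences behind the clearest start-site changes, the 250 bases upstream of the start are given for 2 of the leading genes in each direction. They come from the RefSeq promoter table (GRCm38.p6, the assembly of build mm10), 5′ to 3′ on the gene's strand. Capitals mark any of the 15 motifs searched on both strands.
Myl3, chr9:110763428-110763677, plus strand, higher in Paused: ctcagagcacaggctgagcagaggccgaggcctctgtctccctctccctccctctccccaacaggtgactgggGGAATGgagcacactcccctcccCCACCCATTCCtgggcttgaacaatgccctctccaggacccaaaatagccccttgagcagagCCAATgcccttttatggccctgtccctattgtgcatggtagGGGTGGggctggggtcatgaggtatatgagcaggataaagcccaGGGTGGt
Sox15, chr11:69654787-69655036, plus strand, higher in Paused: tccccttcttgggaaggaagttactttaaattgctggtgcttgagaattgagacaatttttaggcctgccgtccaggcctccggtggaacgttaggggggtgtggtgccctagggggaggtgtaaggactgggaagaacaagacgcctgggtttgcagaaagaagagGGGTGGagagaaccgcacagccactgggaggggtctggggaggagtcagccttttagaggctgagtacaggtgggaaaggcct
Cfhr3, chr1:139661007-139661256, minus strand, lower in Paused: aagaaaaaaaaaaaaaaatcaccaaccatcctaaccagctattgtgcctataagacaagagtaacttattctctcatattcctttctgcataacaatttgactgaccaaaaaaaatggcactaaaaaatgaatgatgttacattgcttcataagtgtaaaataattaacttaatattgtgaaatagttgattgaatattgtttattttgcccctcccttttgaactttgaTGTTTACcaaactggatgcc
Tgm3, chr2:130012090-130012339, plus strand, lower in Paused: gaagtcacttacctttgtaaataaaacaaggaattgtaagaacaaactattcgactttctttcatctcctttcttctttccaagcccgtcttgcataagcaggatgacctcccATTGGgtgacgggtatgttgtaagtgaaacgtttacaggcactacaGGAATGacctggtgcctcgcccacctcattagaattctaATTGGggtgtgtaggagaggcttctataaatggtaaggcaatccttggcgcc
The measured intervals of Myl3 and Tgm3 lie mostly within these stretches. That of Sox15 is centred 121 bases downstream of the start and that of Cfhr3 lies upstream of the stretch shown. The stretches of Myl3 and Sox15 are 59.6% and 55.6% G or C, and those of Tgm3 and Cfhr3 are 44% and 30%.

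Paused and Ctrl libraries stood apart in both knockout lines. Across the 16 libraries the first principal component held 34.8% of the variance and placed all Paused libraries apart from all Ctrl libraries. In both lines together 11280 intervals were separated and higher in Paused, which is 5.42% of the tested intervals, and 8901 were separated and lower, which is 4.28%. With a log2 difference of at least 1 in each line in addition, 992 intervals were higher (0.477%) and 1588 were lower (0.763%). Leaving out the 4 libraries of the near-identical pairs gave 7.66% higher and 6.29% lower, and averaging same-numbered libraries gave 15.7% and 14.4%. Without the centring, on the authors' scaling, 8.97% were higher and 2.56% lower, and the median interval lay 0.11 log2 units above Ctrl. The 2-fold intervals then held 0.848% higher and 0.470% lower, the opposite order. The balance of gains and losses therefore holds only relative to the median interval.

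Taken alone, with 4 libraries against 4, Smad2_KO1 had 25189 separated intervals higher (12.1%) and 22867 lower (11%). Smad2_KO2 had 22784 higher (11%) and 20114 lower (9.67%). Just 16 intervals were separated in opposite directions in the 2 lines. Over tested intervals the change in one line followed that in the other with Pearson's r = 0.78 and Spearman's rho = 0.75, and r = 0.92 at a mean of 100 or more normalized reads. Without the 4 libraries of the near-identical pairs r was 0.73, and 0.90 at a mean of 100 or more. These correlations are across intervals, which are not independent. Of the remaining same-numbered pairs, those of Paused had a chi-square per degree of freedom of 1.01 (numbers 1 and 4) and 1.06 (number 3), and number 1 of Ctrl had 1.05. They exceeded the noise limit but lay below every pair of the same line in their treatment. Numbers 2 and 3 of Ctrl, at 1.23 and 1.28, did not. The correlation without the 4 libraries may thus still rest on libraries that are not independent, and whether they share material was not tested. The interaction of line and treatment was tested with limma, with each line difference taken within a table so that the scaling of a table cancels. It called 0 intervals at an adjusted p under 0.05 (0%), against 7013 (3.37%) at an unadjusted p under 0.05. On the recovered whole reads edgeR and DESeq2 also called 0. The median standard error of that difference was 0.27 log2 units, and 0.17 at a mean of 50 or more. After adjustment over all tested intervals, only differences several times that error could be called, so smaller ones between the lines were not detectable. With replicate number as a term of the limma fit 0 were also called, against 4.41% at an unadjusted p under 0.05. The fit takes the libraries of the 2 lines as independent, so 0 calls do not show that the lines responded alike.

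**Figure D1:**
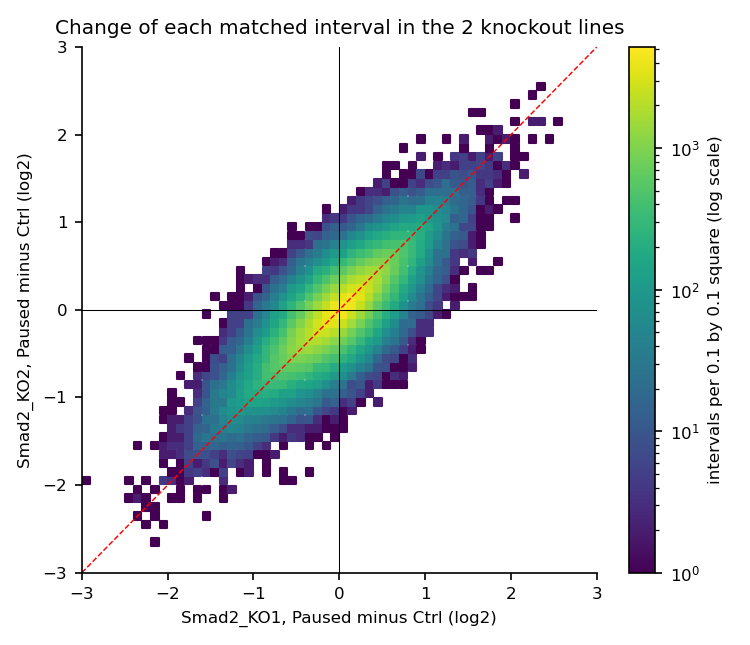
Change (Paused minus Ctrl, log2) of each tested interval in Smad2_KO1 (x axis) and Smad2_KO2 (y axis), with the shade giving the number of intervals per square on a log scale and the dashed line marking equal change. Intervals with large gains or losses lie along the dashed line, with r = 0.78 over all of them.

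Separated gains were most frequent at gene starts and separated losses far from genes. Start-site intervals lay within 500 bases of a start of a protein-coding gene. For genes without a listed start either end of the gene was used, so some may lie at the 3′ end. Of these 12443 intervals, 10.9% were separated and higher and 0.964% lower. Of 9270 tested genes with a promoter entry, 10.6% were higher and 0.723% lower. In gene bodies 5.65% were higher and 3.67% lower. Intergenic intervals within 50 kb of a gene had 5.11% higher and 4.75% lower, and those beyond 50 kb had 3.39% higher and 6.38% lower. The median change was 0.11 log2 units at start sites and -0.09 beyond 50 kb. The mean share of signal in start sites was 23.3% ± 0.469 (SD, n = 4) against 22.1% ± 1.30 for Paused against Ctrl in Smad2_KO1, and 23.2% ± 0.740 against 22.4% ± 0.517 in Smad2_KO2. The ranges of Ctrl and Paused libraries overlapped in both lines. The start-site median stayed above 0 under every scaling tried (0.03 to 0.22), whereas the median beyond 50 kb was 0.01 on the authors' scaling and below 0 under the others. With loess centring along the level, start sites had 7.94% higher and 3.72% lower.

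Separation was rarer at low levels. In the lowest decile of mean level 0.207% of intervals were higher and 0.745% lower, and in the highest decile 12.9% and 4.25%. Start sites were the more open class, with a median level of 210.0 normalized reads against 28.4 in gene bodies. At a mean of 50 to 100 normalized reads, 16.5% of start sites were higher and 1.92% lower, against 10.2% and 5.98% in gene bodies. At 200 or more, 8.11% of start sites and 16% of gene-body intervals were higher, while 0.656% and 5.02% were lower. Start sites thus had the smaller share of losses in both of these level ranges, but not always the larger share of gains.

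**Figure D2:**
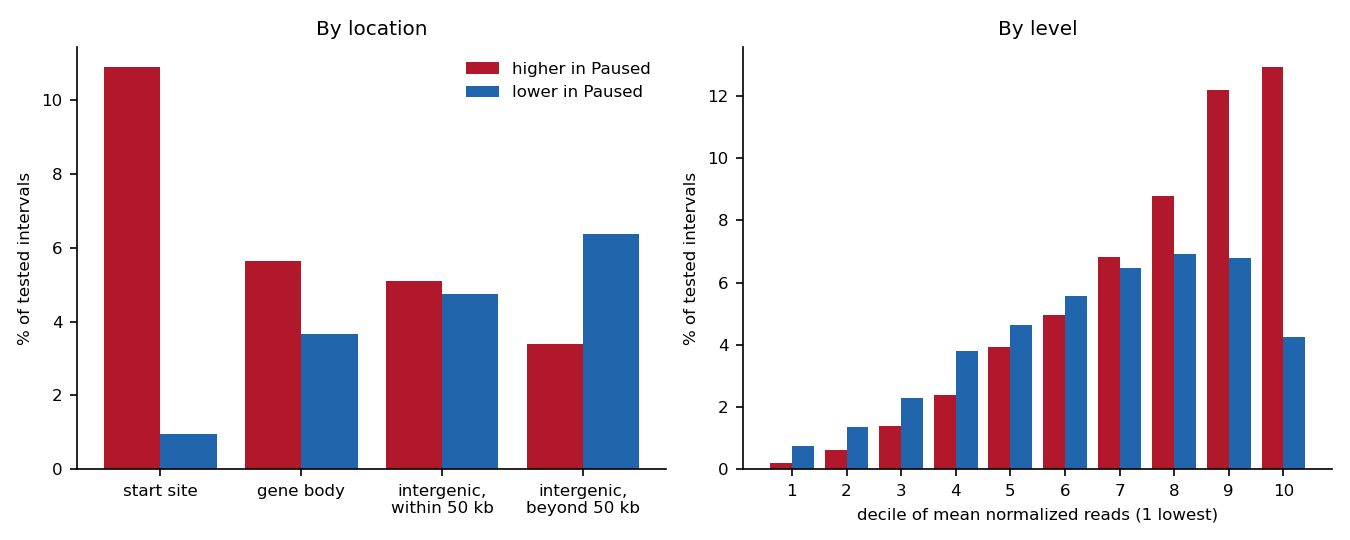
Percentage of tested intervals separated and higher (red) or lower (blue) in Paused, by location (left) and by decile of mean normalized reads over the 16 knockout libraries (right). Start sites have 10.9% higher and 0.964% lower, and both percentages are below 1 in the lowest decile.

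Chromosomes differed modestly. Higher intervals were most frequent on chromosomes 4 (6.97%), 5 (6.86%) and 11 (6.84%), and least frequent on X (2.46%) and 3 (3.78%), among the autosomes and X. Lower intervals were most frequent on chromosomes 13 (5.75%) and X (5.40%) and least frequent on 11 (3.24%). The X chromosome had the lowest median change of these chromosomes, -0.09 in Smad2_KO1 and -0.07 in Smad2_KO2.

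Among start sites, counted as the strongest interval of each of 11656 genes, the largest gains were at genes of different tissues and functions. At 2-fold in each line, 0.18% of genes had their strongest start-site interval higher and 0.0429% lower. Named here are the 8 genes per direction with the largest change in the weaker of the 2 lines at a mean of at least 50. Differences and folds are on the scale of log2(normalized reads + 1), which understates the change of low intervals. The interval 110.5 bases upstream of Myl3, which encodes a myosin light chain of slow and cardiac muscle (chr9:110763478-110763678), held 12.0, 19.4 and 39.0 normalized reads in Ctrl (lowest, median, highest of 8). In Paused it held 66.6, 81.4 and 94.6, a log2 difference of 2.11 in Smad2_KO1 and 1.80 in Smad2_KO2. All Paused libraries lay well above the highest Ctrl library. At Sox15, a Sox-family transcription factor expressed in embryonic stem cells (chr11:69655106-69655306), Ctrl ran from 48.4 over a median of 61.3 to 67.9 and Paused from 166 over 181 to 194. The log2 differences were 1.53 and 1.59.

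At Serpinh1, a collagen chaperone of the endoplasmic reticulum (chr7:99353140-99353340), Ctrl ran from 110 over 135 to 154 and Paused from 303 over 335 to 364. The groups did not overlap and the log2 differences were 1.38 and 1.27. Abhd6, a monoacylglycerol lipase, was 2.75-fold higher as the mean of the lines, and Krt79, a type II keratin, was 2.58-fold higher. Ywhab, a 14-3-3 adaptor protein, was 2.52-fold higher, Klhdc7a 2.48-fold, and Sost, a secreted Wnt antagonist, 2.45-fold. In all of these the WT libraries changed in the same direction, by 0.97 to 1.70 on the log2 scale. The windows of Sox15, Abhd6 and Ywhab lay 96, 98 and 100 bases apart in the 2 tables, so their folds also contain the shift of the window.

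Losses at start sites were fewer and smaller. At Haus1 on chromosome 18, which encodes a subunit of the augmin complex of the spindle, Ctrl ran from 61.2 over 82.8 to 96.7 and Paused from 26.4 over 31.4 to 40.8. The log2 differences were -1.36 and -1.24, and no Paused library reached the lowest Ctrl library. At Cfhr3, a complement factor H-related gene (chr1:139661373-139661573), Ctrl ran from 69.5 over 87.2 to 97.5 and Paused from 30.6 over 38.6 to 46.2. At Tgm3, a transglutaminase of the epidermis (chr2:130012151-130012351), Ctrl ran from 69.6 over 77.3 to 91.6 and Paused from 24.6 over 35.8 to 53.7. Ebi3, a cytokine subunit shared by interleukins, was 2.11-fold lower, and Ankrd36 was 1.88-fold lower. Kcnk5, a background potassium channel, was 1.84-fold lower, with windows 96 bases apart. Spink1, a trypsin inhibitor, was 1.78-fold lower. Sulf1, an extracellular heparan sulfate sulfatase, held 269 to 368 in Ctrl and 154 to 212 in Paused and was 1.77-fold lower. The WT libraries changed in the same direction at all 8, by -0.38 to -1.18.

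**Figure D3:**
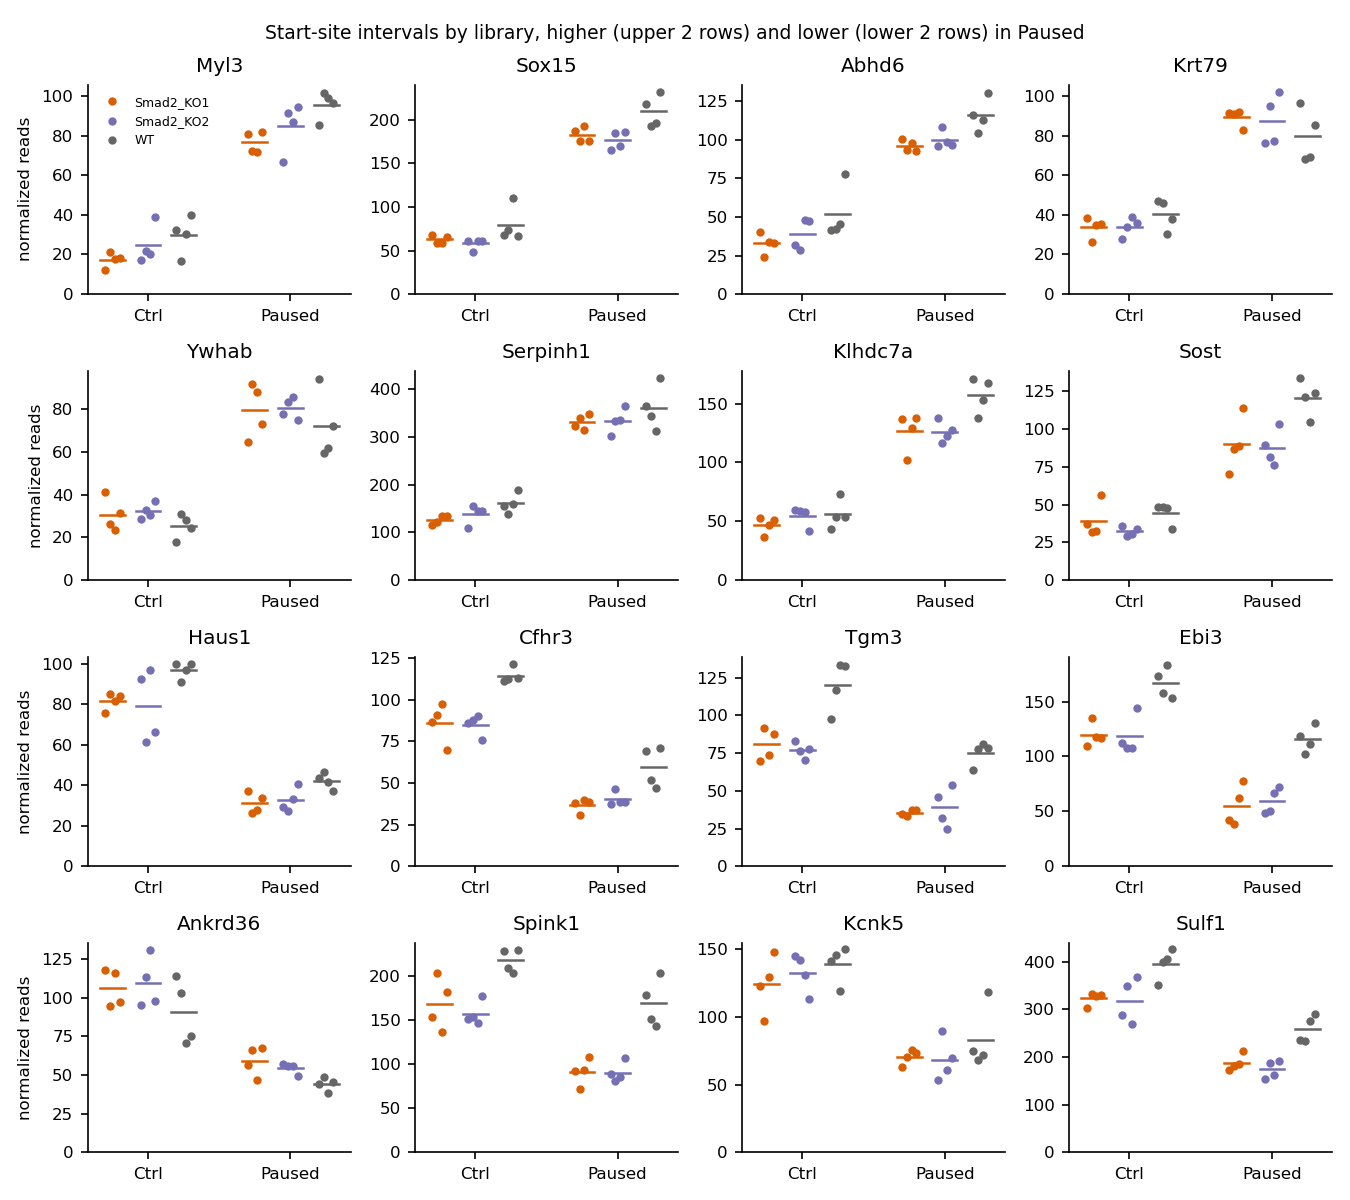
Normalized reads (y axis) of each library at the 16 named start-site intervals in Ctrl and Paused, by line, with 1 point per library and a bar at the group mean (n = 4). The Paused knockout libraries lie above all Ctrl knockout libraries in the upper 2 rows and below them in the lower 2.

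Away from start sites the changes were larger. An interval within Myo18b, an unconventional myosin gene (chr5:112771425-112771625), held 8.60 to 33.0 normalized reads in Ctrl with a median of 19.2, and 123 to 147 with a median of 140 in Paused. The log2 differences were 3.19 and 2.57. An interval within Agpat3, an acyltransferase of phospholipid and triglyceride synthesis (chr10:78326424-78326624), held 29.2 to 41.3 in Ctrl and 165 to 208 in Paused. Its windows were identical in the 2 tables and the log2 differences were 2.31 and 2.51. Intervals within Cerk (ceramide kinase), Rpl36 (a ribosomal protein), Scara5 (a ferritin receptor) and Mical3 (an actin-oxidizing monooxygenase) were 4.56-, 4.70-, 4.60- and 4.19-fold higher. The windows of Rpl36 lay 93 bases apart and those of Cerk 53.

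The largest losses included 2 far intergenic intervals. One on chromosome 6 (chr6:140731015-140731215), whose nearest protein-coding gene Aebp2 was 52634 bases away, held 89.5 to 133 in Ctrl and 15.6 to 35.7 in Paused. The log2 differences were -2.34 and -2.35. Another (chr5:79213893-79214093), 1805120 bases from Adgrl3, held 85.3 to 116 in Ctrl and 15.6 to 24.9 in Paused, with log2 differences of -2.29 and -2.44. Intervals at Ackr4, Pom121l2, Csn3 and Rbfox1 were 4.71-, 4.87-, 4.31- and 4.51-fold lower. The windows of Pom121l2 lay 69 bases apart and those at Adgrl3 54. Intervals far from any gene were assigned by distance alone.

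Of the genes of the mTOR pathway, 2 of 37 with a tested start-site interval were separated, both higher, and 0 lower. Beside this stands the background: of the strongest start-site interval of each of 11656 genes, 11% were higher and 0.884% lower. A count of 2 among 37 is too small to set apart from that share. Of 590 intervals in or within 50 kb of these genes 32 were higher (5.42%) and 23 lower (3.90%), against 5.84% and 3.84% near any gene. Flcn, the folliculin that controls the lysosomal Rag GTPases, had a Ctrl range of 151 to 221 (median 186) and a Paused range of 247 to 297 (median 271), without overlap (log2 differences 0.50 and 0.60). Mlst8, a subunit of both mTOR complexes, differed by 0.47 and 0.49. Mtor itself held 409 to 521 in Ctrl and 402 to 502 in Paused, with fully overlapping groups (-0.02 and 0.01).

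Lysosome and autophagy genes had 2 of 36 start sites higher, Ctsa and Hexa, both encoding lysosomal enzymes, and 0 lower. Ctsa had a Ctrl range of 84.2 to 126 (median 109) and a Paused range of 147 to 203 (median 183), a log2 difference of 0.76 and 0.67. Hexa differed by 0.37 and 0.38. Start sites of the growth machinery that mTOR drives were counted against the same 11% and 0.884%. Ribosome biogenesis and RNA polymerase I genes had 0 of 27 in either direction, nuclear oxidative phosphorylation genes 0 of 27, and cytosolic ribosomal protein genes 1 of 49. The separated gene was Rpl7, which was higher by 0.24 and 0.30. With loess centring 4 of 27 ribosome biogenesis start sites and 3 of 49 ribosomal protein start sites were lower, against 3.82% of all genes. Centred on the highest decile of level, 3 and 4 were lower, against 3.58%. On the authors' scaling 2 of 27 ribosome biogenesis, 6 of 27 oxidative phosphorylation and 5 of 49 ribosomal protein start sites were higher, against 24.6% of all genes. Of all 283 intervals in or within 50 kb of ribosomal protein genes 20 were lower and 11 higher, that is 7.07% and 3.89%, against 3.84% and 5.84% near any gene. At a mean of at least 50 normalized reads the counts near ribosomal protein genes were 10 and 10, and on the authors' scaling 12 were lower and 19 higher.

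Of 20 tested start sites of the integrated stress response 1 was higher and 1 lower, against 11% and 0.884% of all genes. Cebpg, an Atf4 partner, was higher by 0.23 and 0.19, and Psat1, an enzyme of serine synthesis, was lower by 0.33 and 0.31 on the log2 scale. With loess centring or centring on the highest decile 0 were higher and 2 lower, so the call of Cebpg was lost. Psat1 held 394 to 481 in Ctrl and 332 to 366 in Paused. The Atf4 targets Ddit4 (-0.06 and -0.10), Trib3 (0.06 and 0.12) and Asns (0.02 and 0.08) had overlapping groups. Slc36a1, a lysosomal amino acid transporter, was the separated gene among 13 amino acid transporters, higher by 0.22 and 0.27, a call that loess centring lost. Among 9 genes of the Myc and Max network Mycl was higher, by 0.39 and 0.27. Among 18 cyclins and CDK inhibitors 0 were separated, or 2 lower with loess centring, and Cdkn1b, the inhibitor p27, held 234 to 299 normalized reads without inhibitor and 292 to 362 with it.

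Lipid genes were counted in 2 lists, fatty acid transport, oxidation and storage, and sterol and fatty acid synthesis. The series title names Pparg-mediated lipid metabolism, so the choice of these lists is not independent of the study. Of 29 tested start sites of fatty acid transport, oxidation and storage genes, 9 were separated and higher and 0 lower, or 31% against the 11% of all genes. That background depends on level. Over all start-site intervals 4.23% were higher at a mean of 10 to 50, 16.5% at 50 to 100, 18.3% at 100 to 200 and 8.11% at 200 or more. Neither these 2 lists nor the others were matched for level. The list's median change was 0.19 log2 units, against 0.11 for all genes. Leaving out the 4 libraries of the near-identical pairs gave 11 of 29, against 17.2% of all genes, and loess centring gave 7 of 29 higher and 1 lower, against 7.97% of all genes higher. Counting every interval in or within 50 kb of the list's genes, 30 of 350 were higher (8.57%) and 9 lower (2.57%), against 5.84% and 3.84% near any gene. For the synthesis list these were 21 of 322 higher (6.52%) and 15 lower (4.66%), so the summed share of separated intervals was alike in both lists. The difference between the lists was not tested.

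Cpt1b, the muscle form of the carnitine palmitoyltransferase that admits fatty acids to mitochondria (chr15:89425370-89425570), had a Ctrl range of 25.3 to 57.3 (median 34.8) and a Paused range of 63.7 to 89.8 (median 74.6). The highest Ctrl library lay close below the lowest Paused library, and the log2 differences were 1.15 and 0.92. Plin2, a lipid droplet coat protein (chr4:86669910-86670110), had a Ctrl range of 69.5 to 110 (median 99.7) and a Paused range of 136 to 184 (median 159). Its log2 differences were 0.83 and 0.67, against 0.28 in WT. Hadha, a subunit of the trifunctional enzyme of mitochondrial beta-oxidation, had a Ctrl range of 149 to 201 (median 176) and a Paused range of 224 to 255 (median 235) (0.43 and 0.42).

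The transcription factor Ppara differed by 0.65 and 0.37, the mitochondrial transferase Cpt2 by 0.45 and 0.35, and the peroxisomal enzyme Ehhadh by 0.40 and 0.36. The lipoprotein lipase inhibitor Angptl4 differed by 0.41 and 0.37, the pyruvate dehydrogenase kinase Pdk4 by 0.28 and 0.39, and the lipid droplet protein Plin5 by 0.21 and 0.32. Members that were not separated included Acadm (-0.02 and -0.04), Acsl3 (-0.03 and -0.09) and Fabp5 (0.05 and -0.04). Pparg had 1 start-site interval in each table, but no matched and tested pair, so its change is not given. Sterol and fatty acid synthesis genes had 2 of 24 higher and 1 lower, and with loess centring 0 higher and 5 lower. Elovl6, a fatty acid elongase, was higher by 0.32 and 0.34, and Pmvk, of the mevalonate pathway, by 0.28 and 0.39. Scd1, the stearoyl-CoA desaturase, was lower by 0.25 and 0.20 on the log2 scale. Hmgcs1, the sterol-regulated synthase of the mevalonate pathway, held 698 to 868 in Ctrl and 613 to 762 in Paused, with overlap (-0.24 and -0.20).

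**Figure D4:**
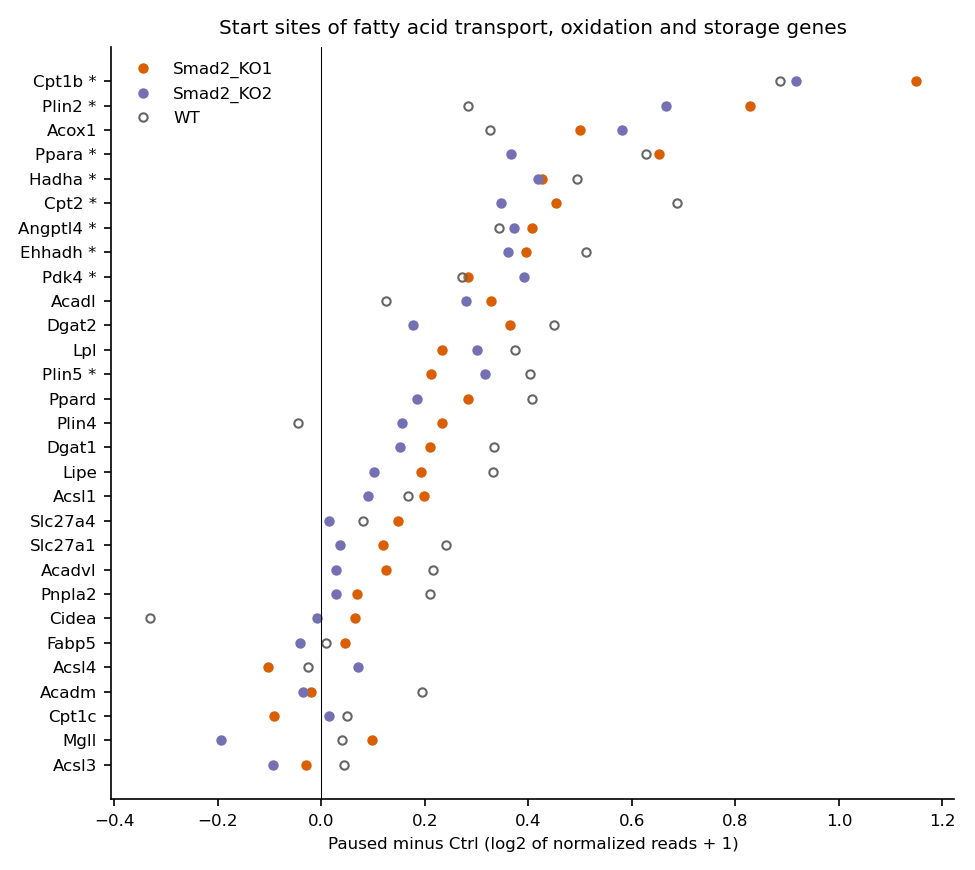
Log2 change (Paused minus Ctrl) of the strongest start-site interval of 29 fatty acid transport, oxidation and storage genes in Smad2_KO1, Smad2_KO2 and WT, with stars marking the 9 genes whose knockout libraries did not overlap between treatments. Cpt1b and Plin2 lead, and the other separated genes lie between 0.21 and 0.65 in the knockout lines.

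Pluripotency genes had few tested start sites, and their counts are too small to set apart from the 11% higher of all genes. Of 12 tested naive pluripotency genes, Esrrb, an orphan nuclear receptor of the naive network, was separated and higher. It had a Ctrl range of 120 to 172 (median 142) and a Paused range of 174 to 218 (median 195) (0.38 and 0.50). With loess centring 0 of these 12 were higher and 1 lower, so the call of Esrrb was lost. Core pluripotency genes had 0 of 7 separated, and formative and primed genes 0 of 13. Nanog held 229 to 312 in Ctrl and 265 to 309 in Paused. Pou5f1 held 38.7 to 53.7 and 51.1 to 76.1, with differences of 0.44 and 0.61 and windows 80 bases apart. Of the Nodal target and feedback genes 0 of 14 start sites were separated, and Lefty1 held 32.7 to 43.2 in Ctrl and 28.5 to 61.1 in Paused (0.07 and 0.27). Nodal and Lefty2 had no start-site interval within 500 bases in either table. Myc, Mycn, Tfeb, Tfe3, Sesn2, Eif4ebp1, Klf2 and Klf4 had no matched and tested start-site interval.

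Gains near genes of the list of trophoblast factors, which also holds Krt8, Krt18 and Plet1, were counted over intervals. In or within 50 kb of its 16 genes 27 of 215 intervals were higher (12.6%) and 3 lower (1.40%), against 5.84% and 3.84% near any gene. The share stayed above that of all genes under every scaling run, and with the 4 libraries left out it was 15.8% against 8.26%. The list was chosen with earlier results of these data known, and these runs reuse the same libraries, so they are no independent check. Of the 27 higher intervals, 10 lay in or near the 7 genes that are also counted as trophoblast markers below. Among 9 tested start sites of the list 2 were higher, against 11% of all genes. Hand1, a basic helix-loop-helix factor, had a Ctrl range of 46.9 to 77.9 (median 55.0) and a Paused range of 91.3 to 120 (median 97.0) (0.80 and 0.76). Tead4, a partner of the Hippo effector Yap, differed by 0.42 and 0.43. Among 11 immediate-early and AP-1 genes 3 were higher, against 11% of all genes, and 2 under total scaling, highest-decile centring or loess. They were the MAP kinase phosphatases Dusp1 (0.46 and 0.40) and Dusp4 (0.38 and 0.23) and the small Maf factor Maff (0.48 and 0.39). Genes of the Dux and Zscan4 programme of early cleavage had 3 tested start sites in the list, with a median change of -0.23 and 0 separated. Of the other lists, Foxo factors and targets had 1 of 16 higher (Pdk4), glucose uptake and glycolysis 1 of 20 (Gpi1, 0.32 and 0.35), and mesendoderm genes 1 of 9 (Hand1).

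**Figure D5:**
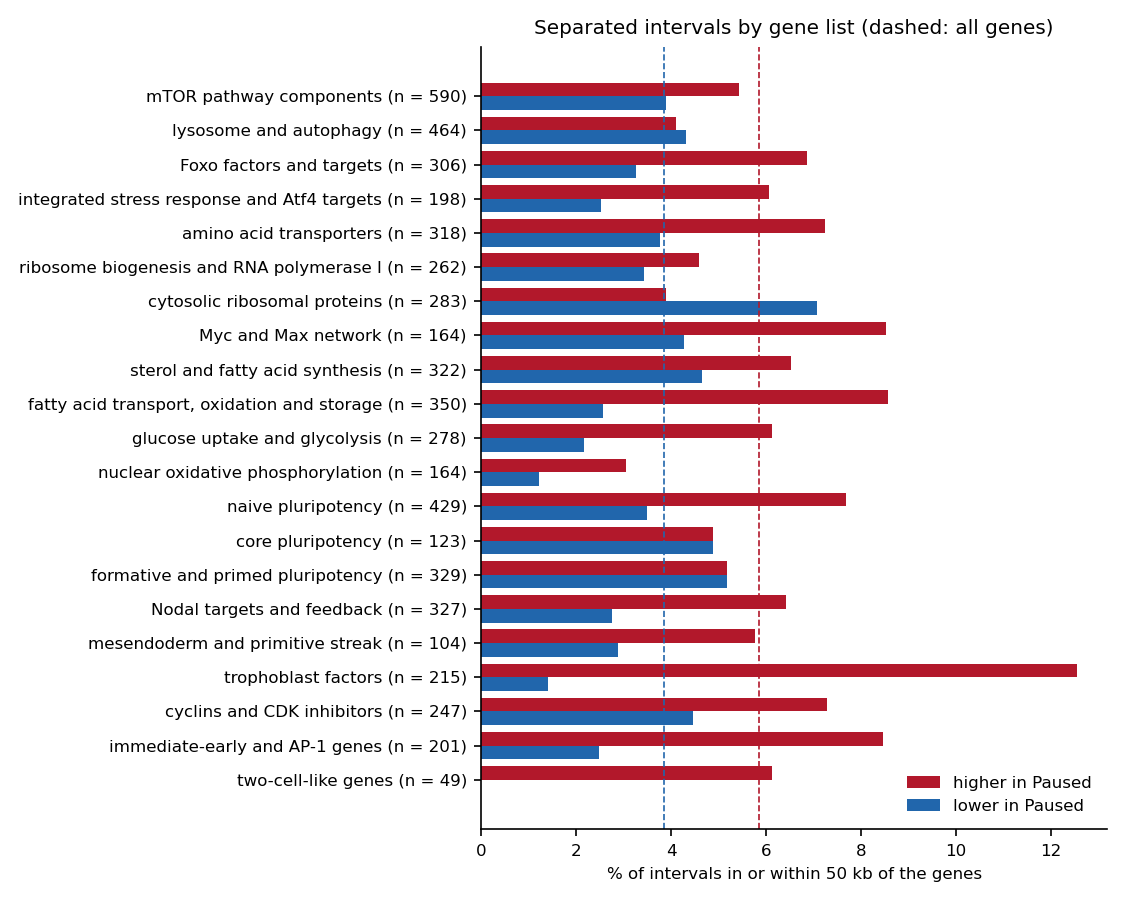
Percentage of intervals in or within 50 kb of the genes of each list that were separated and higher (red) or lower (blue) in Paused, with the number of intervals in brackets and dashed lines at the values for all genes (5.84% and 3.84%). The list of trophoblast factors, which also holds Krt8, Krt18 and Plet1, has 12.6% higher, and cytosolic ribosomal proteins have more lower (7.07%) than higher. The lists were chosen with earlier results of these data known.

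Markers of other cell types were checked beside these lists. Of the strongest start-site intervals of all genes 11% were higher and 0.884% lower, with a median change of 0.11 log2 units. The sums and counts of these small lists were not tested against that. The embryonic stem cell markers Pou5f1, Nanog, Sox2, Esrrb, Zfp42 and Prdm14 had tested start sites, with a summed level of 1403 to 1637 in Ctrl and 1619 to 1822 in Paused. Klf4 and Tfcp2l1 had no tested interval. Of 5 tested primitive endoderm markers Dab2 and Gata6 were higher, and the summed level was 597 to 712 in Ctrl and 776 to 895 in Paused. With loess centring or centring on the highest decile 2 of these 5 were higher and 1 lower. Gata4, Sox7 and Pdgfra had no tested interval. Of 4 tested trophoblast markers Hand1 was higher, and the summed level was 215 to 292 in Ctrl and 328 to 367 in Paused, while Cdx2, Gata3 and Krt8 had none. Of 8 fibroblast markers only Thy1 had a tested interval, which was higher (142 to 193 in Ctrl, 223 to 286 in Paused). Neural progenitor markers had 0 of 3 separated, at a summed level of 438 to 577 and 527 to 627. The part of these markers in the trophoblast result was not tested, and in bulk chromatin more cells with a site open and a more open site per cell cannot be told apart.

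Some genes carried many changed intervals, and these were chosen after their values were seen, among 7760 genes with at least 8 tested intervals. Over all intervals in or within 50 kb of a gene, 5.84% were higher and 3.84% lower. Dtx1, a regulator of Notch signaling, had 7 of 12 higher, and Tie1, an endothelial receptor kinase, 5 of 9. By number the most were at Camta1 (19 of 119 higher, 2 lower), Gse1 (17 of 97) and Ttc28 (15 of 52). Losses were densest at 3 genes of chromosome 13, Gpx5 (9 of 13), Zfp184 (8 of 14) and Btn2a2 (5 of 9). By number Ptprg, a receptor tyrosine phosphatase, led with 16 of 85 lower and 0 higher, and the adhesion protein gene Tenm4 had 14 of 98. In WT the median change had the same sign at each of these genes.

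Promoter sequences of separated start sites were compared as a description over the 9270 genes with a tested interval and a promoter entry, in the window of 250 bases before to 50 after the start. The 984 higher promoters had a median GC content of 61.3% and 18 CpG dinucleotides, close to the 60.7% and 20 of all tested promoters. The 67 lower promoters had 53% and 7. Among promoters in the lowest quartile of GC content 1.83% were lower, against 0.216% in the highest quartile. The letters CCAAT (NF-Y) were found in 29.3% of higher and 40.6% of all tested promoters, and CCGGAA (Ets) in 20.7% and 26.2%. CCACCC (Klf) was found in 43.1% and 37.3%. The E-box CACGTG, bound by Myc, Max and TFEB, was found in 9.96% of higher and 10.3% of all tested promoters. Among the lower promoters GGAATG (Tead) was found in 23.9% against 11.9%, and TGANTCA (AP-1) in 11.9% against 4.91%. CCGGAA was found in 10.4% of the lower promoters, a smaller share than in the higher ones, and CCAAT in 46.3%. The groups of promoters were not matched for level. Over all 17492 promoters of the table the shares were 39.0% for CCAAT, 19.1% for CCGGAA, 32.8% for CCACCC, 7.90% for CACGTG, 13.4% for GGAATG and 7.08% for TGANTCA. Distal intervals were not searched.

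The WT libraries changed mostly in the direction of the knockouts. In WT 20878 intervals were separated and higher (10%) and 17673 lower (8.49%), with 4 libraries against 4. Of the intervals separated in the knockouts, 99.1% of the higher and 98.8% of the lower ones changed in the same direction in WT. The start-site median was 0.11 in the knockouts and 0.20 in WT, a difference that was not tested. The test of the difference in response over all 24 libraries with limma called 4 of 208059 intervals (0.00192%) at an adjusted p under 0.05, against 16603 (7.98%) at an unadjusted p under 0.05. With the 4 libraries of the near-identical pairs left out it called 0, and without Ctrl_WT replicate 4 it also called 0. Without Paused_WT replicate 3 it called 15, and without Ctrl_WT replicate 1 it called 11. The remaining left-out libraries gave 1 to 5.

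Of the 4, an interval in the body of Tenm4 (chr7:96427172-96427372) held 12.0 ± 1.87 in Ctrl Smad2_KO1, 12.1 ± 4.78 in Ctrl Smad2_KO2 and 15.5 ± 3.92 in Ctrl WT (SD, n = 4). In Paused it held 15.7 ± 3.92, 16.7 ± 2.42 and 3.32 ± 1.37. The change in the knockouts exceeded that in WT by 2.38 ± 0.37 log2 units (SE, limma adjusted p = 0.0117). An intergenic interval 30084 bases from Stt3b (chr9:115340455-115340655) was lower by 0.40 and 0.26 in the knockout lines and higher by 1.22 in WT, a difference of -1.55 ± 0.26 (limma adjusted p = 0.0190). An interval 109073 bases from Hes1 changed by -0.01 and 0.06 in the knockouts and by 1.40 in WT (limma adjusted p = 0.0297). An interval 80299 bases from Ywhaz was higher by 0.87 and 0.52 in the knockouts and lower by 0.96 in WT (limma adjusted p = 0.0297). None of the 4 was separated in the knockouts, and the groups at Tenm4 and Ywhaz had means under 35 normalized reads. The windows at Ywhaz lay 82 bases apart in the 2 tables and those at Tenm4 53. In Ctrl the WT mean was already lower at Stt3b (16.4, against 41.3 in Smad2_KO1 and 35.6 in Smad2_KO2) and at Hes1 (22.7, against 47.0 and 40.4). At Ywhaz it was already higher (32.5, against 14.1 and 20.4).

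Of the 64 intervals and genes named by rule, 0 passed that test, and 12 had an unadjusted p under 0.05, against 7.98% of all tested intervals. Since most were chosen for large knockout changes, a smaller WT change is favoured by the choice. The start site of Plin2 differed by 0.46 ± 0.14 log2 units between the knockouts and WT (limma adjusted p = 0.367, unadjusted p = 0.0017). This difference failed the correction. An interval in the gene body of Rbfox1, a neuronal splicing factor gene, differed by -0.93 ± 0.23 (limma adjusted p = 0.252).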

How the data were processed

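ATAC-seq libraries numbered 24 in the series, and the 16 of Smad2_KO1 and Smad2_KO2 were compared between Paused and Ctrl, 4 per line and treatment. Per the submitters' processing notes the tools were FastQC, Trim Galore, Bowtie2 2.4.1, MACS3 3.0.3 and DiffBind 3.16.0, with build mm10. The deposited tables hold a signal per interval and library, namely read counts divided by 1 factor per library, and each treatment has a table of its own. The authors' log2 mean and log2 fold columns, and their deposited p-value and FDR columns of knockout against WT, were not used. Intervals were matched one to one at 50% overlap of each, each library was centred on its median log2 ratio over matched intervals, and intervals with a mean under 10 were left out. Values were compared as log2(value + 1). Paused against Ctrl was described by overlap of libraries. The difference of the change between lines, or between knockouts and WT, was tested with limma 3.58.1 in R 4.3.3 with Benjamini-Hochberg adjustment over all tested intervals. edgeR 4.0.16 and DESeq2 1.42.0 were alternatives on whole reads recovered from the deposited signal, and values up to 50 normalized reads lay within 0.02 of a whole read. Scripts were tested on simulated data.

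Genes and start sites came from RefSeq (GRCm38.p6), with start-site intervals within 500 bases of a start. Of 21900 protein-coding genes 17492 had a listed start. For the others, intervals within 500 bases of either end of the gene were counted as start-site intervals. Named intervals were the 8 start sites per direction and the 6 other intervals per direction with the largest change in the weaker line at a mean of at least 50, listed genes, and up to 3 separated start sites per gene list. The gene lists and the members were chosen with earlier results of these data known. Alternatives changed the pseudocount, filter, scaling, matching, replicates and test. The libraries held 11.8 to 20.0 megareads in intervals, so small differences at low intervals were not detectable.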

Additional observations from a re-analysis of the deposited data

Results flagged for a closer look

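In 16 of 256 groups of 4 libraries at named intervals, 1 library lay far from the other 3, and chance gives about 1 in 20. The depth of the 4 groups gave none. In Ctrl Smad2_KO2 these were Sox15 (replicate 2, 48.4 normalized reads), Klhdc7a (replicate 4, 42.1), Ebi3 (replicate 4, 144) and Pou5f1 (replicate 2, 39.3). In Ctrl Smad2_KO1 they were Sulf1 (replicate 1, 302 normalized reads), Rpl36 (replicate 3, 19.7), Pom121l2 (replicate 4, 182) and Cebpg (replicate 2, 193). In Paused Smad2_KO1 they were Krt79 (replicate 4, 82.9 normalized reads), Cfhr3 (replicate 2, 30.6), Pdk4 (replicate 3, 362), Rpl7 (replicate 4, 410) and Gpi1 (replicate 4, 355). In Paused Smad2_KO2 they were Nanog (replicate 2, 265 normalized reads), Cdkn1b (replicate 4, 362) and Hmgcs1 (replicate 4, 762).

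The change in the knockouts differed from that in WT at 4 intervals by limma's test of the difference. The knockout change minus the WT change was 2.38 log2 units in the body of Tenm4, -1.55 near Stt3b, -1.37 at 109073 bases from Hes1 and 1.66 at 80299 bases from Ywhaz.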

How the results depend on the processing

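Among alternatives other than leaving out a library, 61 of 84 values over all intervals and 523 of 603 values of named intervals and gene lists stayed within the set limits. The percentages separated in both lines (higher and lower) were 8.97% and 2.56% on the authors' scaling, with 0.848% and 0.470% at 2-fold, 7.20% lower in Smad2_KO1, and 17.4% and 5.94% in Smad2_KO2. They were 4.74% and 4.93% when scaled by the total, 3.70% and 5.77% when centred on the highest decile, and 4.83% and 4.87% with loess. At a mean of at least 50, 11.1% were higher, and identical bounds gave 0.269% higher at 2-fold. Averaging same-numbered libraries gave 15.7% and 14.4%. With the 4 libraries left out, chosen after seeing the data, Smad2_KO1 had 16.7% lower and Smad2_KO2 14.6%, and the knockout-WT test called 0.

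The deviations of libraries with the same replicate number had a mean correlation of 0.052 between treatments in Smad2_KO1 and 0.094 in Smad2_KO2. Between the lines it was 0.062 in Ctrl and 0.116 in Paused (highest 0.204), against -0.021 and -0.039 for other numbers, and each same-numbered pair was above 0. Not every pair was over 0.1, and the numbers were not used as pairs in the main results. The low values do not show that same-numbered libraries are unrelated, so results with a replicate block follow. With the replicate block, requiring all same-numbered differences to have one sign, 12.2% were higher and 10.7% lower in both lines, 20.6% and 19.3% in Smad2_KO1, and 20.0% and 18.7% in Smad2_KO2. The replicate block gave 24 calls between knockouts and WT and 0 between the lines. That knockout-WT test called 0 with identical bounds and 1 by DESeq2, and 5 by edgeR.

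Leaving out 1 library gave 5.70% to 6.00% higher and 4.52% to 5.02% lower in both lines, 0.464% to 0.504% and 0.712% to 0.829% at 2-fold, 14.1% to 14.9% and 13.0% to 14.2% in Smad2_KO1, and 12.9% to 13.5% and 11.7% to 12.6% in Smad2_KO2. It gave 0 calls between the lines and 0 to 15 between knockouts and WT. The median start-site change turned negative for cyclins and CDK inhibitors (-0.00999 centred on the highest decile, -0.032 with loess), for lysosome genes (-0.011 with loess) and for trophoblast factors (-0.047 with identical bounds). The cause of these changes was not tested.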

Other observations

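Over all intervals in or within 50 kb of a gene, 5.84% were higher and 3.84% lower. Further genes with many separated intervals, chosen after their values were seen, were Ablim1 (12 of 49 higher, 0 lower) and Myh9, a non-muscle myosin heavy chain (11 of 39 higher, 0 lower). Losses were seen at Mpped2 (11 of 37 lower, 0 higher), Cntnap2, a neuronal adhesion protein (11 of 62 lower, 0 higher), and Angpt1, a ligand of the receptor Tie2 (4 of 10 lower, 0 higher). The median change in WT had the same sign as in both knockout lines at each of them.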
